A study of Mus musculus with 8 samples.

Results

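Voltage-gated calcium channels are represented here by 10 genes measured in the mouse submandibular gland: the pore genes Cacna1a, Cacna1c, Cacna1d and Cacna1h, the alpha2delta genes Cacna2d1 and Cacna2d2, and the beta genes Cacnb1, Cacnb2, Cacnb3 and Cacnb4. They were taken by name, through their Ensembl gene numbers, from count tables of 54838 genes. All 10 passed the filter on low counts that left 19358 genes for testing. The gland, a major salivary gland, was excised from male mice and freed of surrounding tissue, and total RNA depleted of ribosomal RNA was sequenced. The 8 libraries were 4 of wild-type animals of the strain C57BL/6J (WT) and 4 of Dp16 animals. Dp16 is the strain B6.129S7-Dp(16Lipi-Zbtb21)1Yey/J, a model of Down syndrome with an inherited duplication of the segment of mouse chromosome 16 between Lipi and Zbtb21 (75540514 to 97962622 on GRCm38). The strain label of both groups reads C57BL/6J, no treatment is labelled, and age is not given in the sources used here. The duplication is carried by every cell of the animal, and each library is a whole gland, so fewer cells of a type and less RNA per cell cannot be told apart. No label says whether libraries of a group came from separate animals, so p-values measure the spread between these libraries.

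A voltage-gated calcium channel opens when the membrane depolarises and lets calcium into the cell. The pore protein (alpha1) sets the channel type: L-type pores open at strong depolarisation and drive contraction and secretion, P/Q, N and R type pores serve transmitter release, and T-type pores open near the resting potential. Beta subunits bind the pore from inside and bring it to the surface, and alpha2delta subunits sit outside and raise the number of channels in the membrane. These channels are best known in nerve, muscle and endocrine cells. Salivary acinar cells, which secrete the fluid, are not classically excitable, and their calcium signal is known to come mainly from internal stores and store-operated entry. The title of the series names calcium as its subject, and the question for these genes was whether their RNA levels differed between WT and Dp16.

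Reads in genes ranged from 90790542 to 115729892 per library. Gland markers were abundant. Egf, a growth factor of the granular ducts, had 28304 to 61702 CPM (reads scaled to a common library size) in WT and 15704 to 42405 CPM in Dp16, and Aqp5, the water channel of acinar cells, 97.0 to 115 and 53.9 to 84.0 CPM. Of 6 granular duct markers 5 had negative log2 fold changes of Dp16 over WT (median -0.51), and edgeR, DESeq2 and limma-voom each called 1 lower (Klk1). Of 8 acinar markers 7 were negative (median -0.22), with 0 called by edgeR or limma-voom. Of the 8, 2 had an edgeR unadjusted p below 0.05 and DESeq2 called 2 lower (Aqp5 and Bhlha15). Over all genes, 24.6% had an edgeR unadjusted p below 0.05. EdgeR, DESeq2 and limma-voom called 0.625%, 9.78% and 2.05% of all genes in either direction. Reads overlapping no counted feature, which can include intron reads, took 13.8% to 15.9% of all reads in WT and 18.4% to 20.8% in Dp16, with no overlap. The summed level of 14 lymphocyte markers was 6.37 to 9.30 CPM in WT and 11.9 to 39.4 CPM in Dp16. That of 8 endothelial markers was 45.3 to 56.4 and 59.9 to 65.9 CPM. The parts of these differences in the results below were not tested.

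None of the 10 genes lies on chromosome 16, so all are outside the duplication. They are Cacna1a on chromosome 8 (84388440 to 84640246), Cacna1c on chromosome 6 (118587240 to 119196418), Cacna1d on chromosome 14 (30039939 to 30491455), Cacna1h on chromosome 17 (25374285 to 25433783), Cacna2d1 on chromosome 5 (15934691 to 16374511), Cacna2d2 on chromosome 9 (107399612 to 107529343), Cacnb1 on chromosome 11 (98001508 to 98023034), Cacnb2 on chromosome 2 (14603088 to 14987908), Cacnb3 on chromosome 15 (98630840 to 98644529) and Cacnb4 on chromosome 2 (52428320 to 52676831), on GRCm38. Reads were counted over whole genes, so alternative starts and splice forms were summed. Several genes share exon positions with a gene on the other strand, and the strand setting of the counting is not given. The most abundant such partner was Chdh, opposite Cacna1d, which had 38.9 ± 3.17 CPM over the WT libraries and 31.2 ± 3.33 CPM over those of Dp16 (SD, n = 4). Its log2 fold change was -0.32 (edgeR adjusted p = 0.106), opposite in sign to that of Cacna1d. The partner of Cacnb4, A430018G15Rik, had 2.26 ± 0.332 and 2.19 ± 0.414 CPM.

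The channel genes were lowly expressed, and the beta gene Cacnb3 had the highest mean level per length. In TPM (reads per kilobase of the union of exons, scaled to the same total in each library), Cacnb3 averaged 3.20 over the 8 libraries, with a range of 2.62 to 4.74. Cacnb4 followed at 2.27 (1.20 to 3.72), Cacnb1 at 1.01 (0.740 to 1.40), Cacna2d1 at 0.813 (0.630 to 1.02) and Cacna1a at 0.757 (0.482 to 1.21). Lower still were Cacna1d at 0.432 (0.255 to 0.782), Cacna1c at 0.351 (0.272 to 0.410) and Cacna1h at 0.235 (0.110 to 0.430). Cacna2d2 at 0.0372 (0.0207 to 0.0615) and Cacnb2 at 0.0226 (0.00700 to 0.0347) were at the bottom. Of neighbours in this order, only Cacna1h and Cacna2d2 had ranges that did not overlap. Within libraries, Cacnb3 lay above Cacnb4 in 7 of 8, Cacna1a above Cacna1d in 8 of 8, and Cacna2d1 above Cacna1a in 5 of 8.

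**Figure D1:**
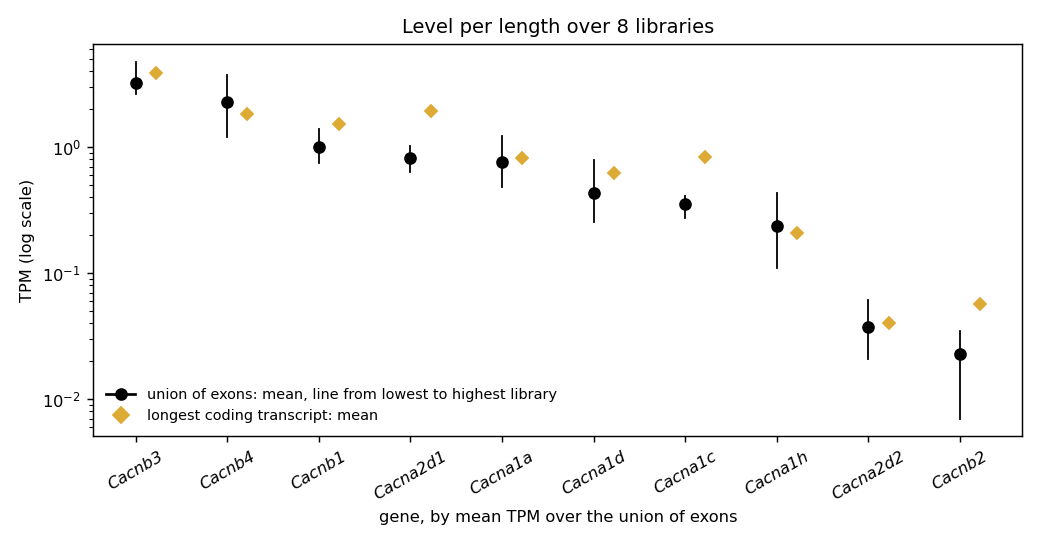
Level per length of the 10 subunit genes (TPM, log axis), in order of the mean over 8 libraries with the union of exons as length; circles are means, lines run from the lowest to the highest library, and diamonds are means with the longest coding transcript as length. Cacnb3 is highest under both lengths (3.20 and 3.88 TPM), and Cacna2d1 and Cacna1c move up under the shorter length.

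The choice of length moved some ranks. With the longest coding transcript in place of the union of exons, 5 pairs of genes changed order. Cacna2d1 rose to rank 2 at 1.92 TPM, and Cacna1c to rank 5 at 0.833 TPM. In both, the union of exons is much longer than the coding transcript: it spans 21191 bases for Cacna1c against 6669 for its longest coding transcript, and 12416 against 3933 for Cacna2d1. Cacnb3 stayed first at 3.88 TPM, and Cacnb2 and Cacna2d2 stayed in the last places.

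Within each class the make-up was uneven. Among the 4 beta genes, Cacnb3 held 50.5% ± 5.26 of summed TPM in WT and 48.7% ± 4.57 in Dp16, and Cacnb4 34.4% ± 7.17 and 34.3% ± 8.96 (SD, n = 4). Cacnb2, the beta subunit best known from heart, held 0.234% ± 0.0689 and 0.459% ± 0.127. Of the alpha2delta genes, Cacna2d1, a target of gabapentin drugs, held 96.07% ± 0.956 in WT and 93.7% ± 1.54 in Dp16. The 10 pore genes of the mouse together held 25.6% ± 1.96 and 25.9% ± 1.22 of the summed TPM of all 26 voltage-gated calcium channel genes. The beta genes held 63.2% ± 3.36 and 63.3% ± 3.31, and the alpha2delta genes 8.55% ± 1.48 and 8.55% ± 2.07. These shares depend on the length used. With the longest coding transcript, pore genes held 25.2% ± 1.75 and 26.1% ± 1.22, and beta genes 57.2% ± 3.68 and 57.0% ± 4.15. Alpha2delta genes held 15.9% ± 2.32 and 15.5% ± 3.43, and Cacnb4 25.1% ± 6.08 and 24.9% ± 7.28 of the beta sum. So the balance between classes was close in the 2 genotypes, with differences below the spread between libraries. Over the union of exons, the 10 genes described here made up 87.6% ± 1.45 and 90.3% ± 2.34 of the sum of all 26.

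By edgeR's quasi-likelihood test, 0 of the 10 genes passed an adjusted p of 0.05, against 0.625% of all genes tested (121 of 19358). DESeq2 called 1 of 10 (Cacna1d), where it called 9.78% of all genes, and limma-voom called 0, where it called 2.05%. At an unadjusted p below 0.05, edgeR gave 2 of 10, both higher in Dp16, against 24.6% of all genes, so the members' share is near the background. The groups did not overlap for the same 2 genes, Cacna1d and Cacnb2, where 14.1% of all genes did not overlap. All 10 log2 fold changes were positive with a median of 0.17, against 51.1% positive and a median of 0.01 over all genes tested. For Cacna2d1, Cacnb3 and Cacnb4 the value was close to 0 and turned negative in some alternatives: 8 to 10 of the 10 were positive when single libraries were left out, and 9 by DESeq2.

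**Figure D2:**
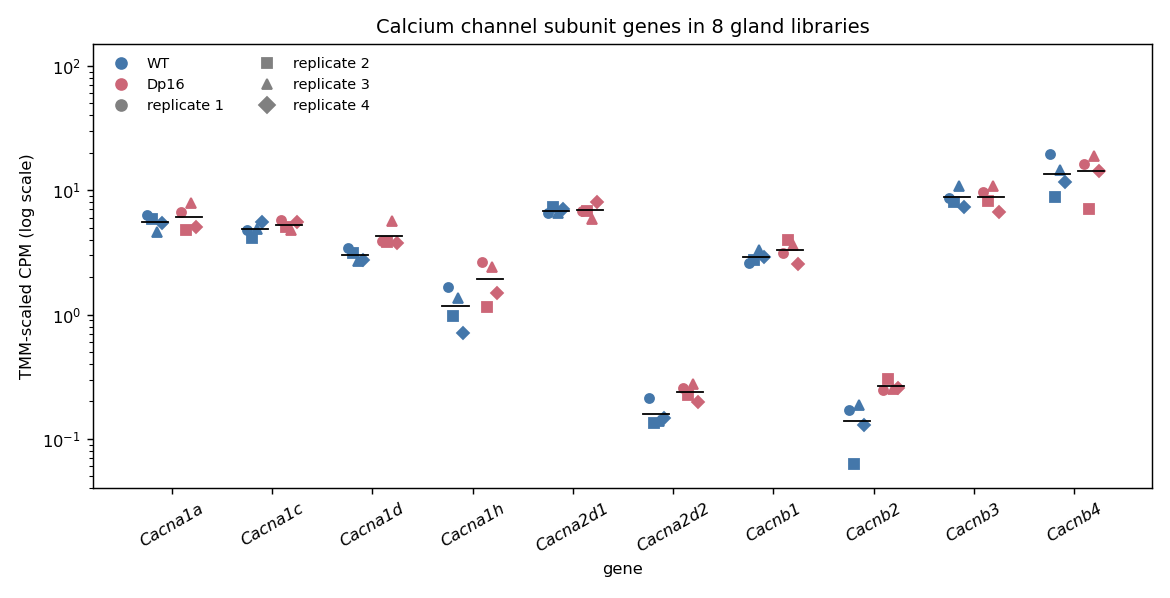
TMM-scaled CPM (log axis) of each subunit gene in the 8 libraries; colour gives the genotype, marker shape the replicate number and black bars the group means. The genotypes separate for Cacna1d (WT up to 3.44, Dp16 from 3.75) and Cacnb2 (WT up to 0.188, Dp16 from 0.247) and overlap for the other 8 genes.

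Cacna1d encodes Cav1.3, an L-type pore that opens at lower voltages than other L-type pores and serves pacemaking and endocrine secretion. It had 342, 302, 274 and 315 reads in WT replicates 1 to 4 and 428, 445, 606 and 363 in Dp16. In CPM, scaled for library size and composition by the trimmed mean of M values (TMM), these were 3.44, 3.14, 2.72 and 2.73 in WT and 3.91, 3.86, 5.63 and 3.75 in Dp16. Every Dp16 library lay above every WT library, and Dp16 replicate 3 stood apart from the rest. The fold was 1.42 (log2 fold change 0.51, SE 0.163, 95% confidence interval 0.14 to 0.88), with an edgeR adjusted p of 0.118. DESeq2 gave 0.50 and called it (DESeq2 adjusted p = 0.0489), and limma-voom gave 0.45 (limma-voom adjusted p = 0.0914). Without Dp16 replicate 3 the value was 0.35 (edgeR adjusted p = 0.223), and DESeq2 gave 0.34 with an adjusted p of 0.152. The DESeq2 call was also lost without WT replicate 2, 3 or 4 or Dp16 replicate 1 (adjusted p = 0.118, 0.144, 0.164 and 0.0971), where the value stayed at 0.45 to 0.54. It held without WT replicate 1 or Dp16 replicate 2 or 4 (adjusted p = 0.0375, 0.0487 and 0.0441). Over 23 alternatives, all with a positive value, the adjusted p was 0.0375 to 0.231.

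The same library was highest in lymphocyte markers. Their summed level was 9.30, 8.03, 7.53 and 6.37 CPM in WT replicates 1 to 4 and 26.4, 11.9, 39.4 and 19.9 CPM in Dp16. All 14 markers had reads, and all 14 were positive. Of the 14, 13 had an unadjusted p below 0.05 (24.6% of all genes). DESeq2 called 13 of them higher, limma-voom 3 and edgeR 1 (Klrd1, a receptor of killer cells), against 9.78%, 2.05% and 0.625% of all genes called in either direction. Dp16 replicate 2 had a Cacna1d level near those of Dp16 replicates 1 and 4, and the lowest lymphocyte sum of the Dp16 group. The protein-coding genes whose log2 CPM ran most like that of Cacna1d over the 8 libraries, out of 11895, were Samsn1 (Pearson r = 0.974), Jaml (r = 0.972) and Gm14305 (r = 0.967). Samsn1, an adaptor of B cells and other blood cells, lies inside the duplication, and Jaml is an adhesion protein of leukocytes. Dp16 replicate 3 was also the highest library in the summed level of 6 macrophage markers. That sum was 197, 179, 319 and 215 CPM in Dp16 replicates 1 to 4 and 200 to 226 CPM in WT. None of the 6 had an edgeR unadjusted p below 0.05 (24.6% of all genes). The same library was lowest in the summed level of 8 acinar markers, at 226035 CPM against 237001 to 364924 in the others. It was also lowest in 6 granular duct markers, at 37688 CPM against 53210 to 116271. The part of lymphocytes, macrophages, acinar cells or granular duct cells in the Cacna1d difference was not tested.

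**Figure D3:**
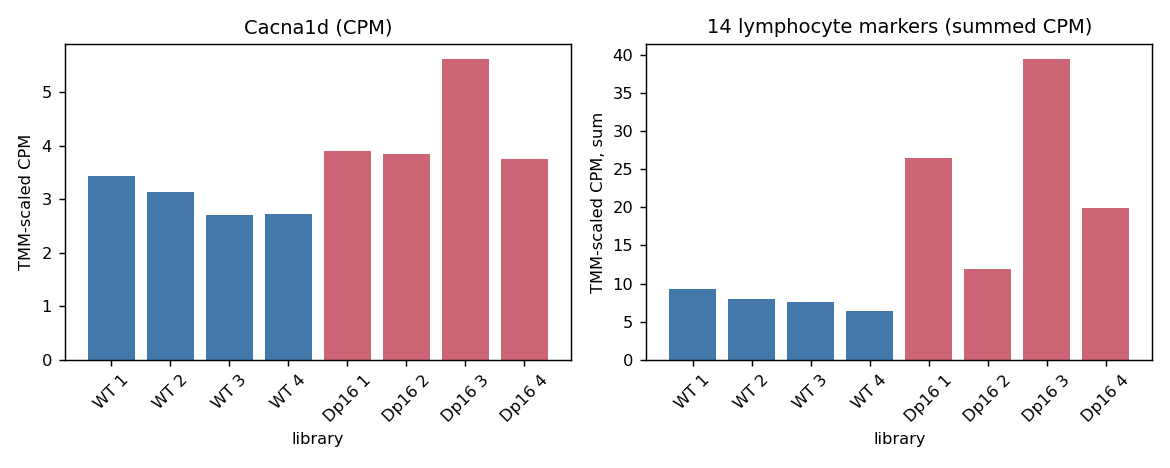
Cacna1d (left, TMM-scaled CPM) and the sum of 14 lymphocyte markers (right, summed TMM-scaled CPM) in each library, WT in blue and Dp16 in red. Dp16 replicate 3 is highest in both (5.63 and 39.4 CPM), while Dp16 replicate 2 has 3.86 CPM of Cacna1d and a lymphocyte sum of 11.9.

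Cacna1c encodes Cav1.2, the L-type pore of heart and smooth muscle. It had 4.80, 4.10, 4.86 and 5.58 CPM in WT replicates 1 to 4 and 5.81, 5.06, 4.76 and 5.55 in Dp16 (394 to 643 reads). The groups overlapped, with a log2 fold change of 0.13 (SE 0.122, edgeR adjusted p = 0.529), and the interval of the fold was 0.905 to 1.33. Markers of smooth muscle, where Cav1.2 drives contraction, and of myoepithelium summed to 532 to 637 CPM in WT and 526 to 641 in Dp16. Of 10 tested, 6 were positive and 4 negative. EdgeR and limma-voom called 0 (0.625% and 2.05% of all genes). DESeq2 called 1 lower (Cnn1, a smooth muscle calponin, DESeq2 adjusted p = 0.0295), against 9.78% of all genes in either direction. At an edgeR unadjusted p below 0.05 there were 3, 1 higher and 2 lower, against 24.6% of all genes. The groups did not overlap in 1 higher and 1 lower marker, against 14.1% of all genes. The reads of Cacna1d per read of Cacna1c were 0.717, 0.766, 0.559 and 0.490 in WT and 0.673, 0.762, 1.18 and 0.676 in Dp16, so this ratio was outside the WT range only in Dp16 replicate 3.

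Cacna1a encodes Cav2.1, the P/Q type pore of nerve terminals. It had 6.28, 5.82, 4.64 and 5.44 CPM in WT replicates 1 to 4 and 6.74, 4.82, 7.89 and 5.09 in Dp16 (468 to 850 reads). Dp16 replicates 1 and 3 lay above the WT range and the other two inside it. The log2 fold change was 0.15 (SE 0.174, edgeR adjusted p = 0.624), and it was 0.0018 without Dp16 replicate 3. Genes of nerve fibres were low: 14 nerve markers summed to 2.28 to 3.79 CPM in WT and 3.46 to 5.49 in Dp16. All 8 that edgeR tested had positive values, against 51.1% of all genes. Of the 8, 2 had an edgeR unadjusted p below 0.05, a share near the 24.6% of all genes. The groups did not overlap in 2, against 14.1% of all genes. EdgeR, DESeq2 and limma-voom called 0, where they called 0.625%, 9.78% and 2.05% of all genes. The transmitter genes Th and Dbh had 0 to 1 read per library and Chat had 0 to 7.

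Cacna1h encodes Cav3.2, a T-type pore. It had 165, 93, 138 and 82 reads in WT replicates 1 to 4 and 290, 133, 258 and 144 in Dp16. These were 1.66, 0.968, 1.37 and 0.711 CPM in WT and 2.65, 1.15, 2.39 and 1.49 in Dp16. Dp16 replicates 1 and 3 were above all WT libraries, and replicates 2 and 4 were within the WT range. The log2 fold change was 0.71 (SE 0.336, 95% confidence interval -0.047 to 1.46, edgeR adjusted p = 0.226). It ranged from 0.51 without Dp16 replicate 1 to 0.91 without WT replicate 1.

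Of the alpha2delta genes, Cacna2d1 had the smallest standard error of the 10 genes. It had 6.51, 7.35, 6.59 and 7.002 CPM in WT replicates 1 to 4 and 6.79, 6.85, 5.90 and 8.10 in Dp16 (636 to 807 reads). The Dp16 values spread on both sides of the WT range, and the log2 fold change was 0.0092 (SE 0.112, edgeR adjusted p = 0.969). The interval of the fold, 0.846 to 1.20, excludes a change by the 1.42-fold seen for Cacna1d. Cacna2d2, best known from cerebellum and lung, had 21, 13, 14 and 17 reads in WT and 28, 26, 30 and 19 in Dp16. In CPM these were 0.211, 0.135, 0.139 and 0.147 in WT and 0.256, 0.225, 0.278 and 0.196 in Dp16. Only WT replicate 1 and Dp16 replicate 4 crossed. The log2 fold change was 0.59 (SE 0.285, edgeR adjusted p = 0.232), and the 95% Poisson interval of a single library, which covers counting error only, ran from 6.92 to 22.2 reads around the lowest count of 13.

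Among the beta genes, Cacnb3 and Cacnb4 carried most reads. Cacnb3, a beta subunit of many non-muscle cells, had 8.69, 8.06, 10.8 and 7.39 CPM in WT replicates 1 to 4 and 9.63, 8.15, 10.8 and 6.70 in Dp16 (648 to 1168 reads). The 2 sets of values covered nearly the same range, with a log2 fold change of 0.014 (SE 0.169, edgeR adjusted p = 0.969) and an interval of the fold from 0.776 to 1.31. The genes most like Cacnb3 over the 8 libraries were Ephx1 (r = 0.966), Suds3 (r = 0.96) and Mgat1 (r = 0.951), with log2 fold changes of -0.029, -0.0070 and -0.060.

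Cacnb4, a beta subunit best known from brain, had the most reads of the 10 genes, 818 to 2045 per library, and a wide spread within each genotype. It had 19.6, 8.77, 14.5 and 11.5 CPM in WT replicates 1 to 4 and 16.2, 7.09, 19.0 and 14.4 in Dp16. Replicate 2 was the lowest library in both groups. The log2 fold change was 0.057 (SE 0.313, edgeR adjusted p = 0.928), and the interval of the fold, 0.638 to 1.69, leaves a change as large as that of Cacna1d possible. Cacnb4 reads per Cacnb3 read varied from 1.09 to 2.25 in WT and from 0.870 to 2.15 in Dp16.

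Cacnb1, the beta subunit of skeletal muscle that is also made elsewhere, had 2.61, 2.75, 3.32 and 2.88 CPM in WT replicates 1 to 4 and 3.12, 3.99, 3.62 and 2.53 in Dp16 (245 to 461 reads). Dp16 replicates 2 and 3 exceeded the WT range and replicate 4 lay below it, and the log2 fold change was 0.20 (SE 0.163, edgeR adjusted p = 0.468). Skeletal muscle markers were low in sum, and among them Myh4 and Myl1 had 0 to 1 read per library. The sum over 7 markers was 1.33 to 1.84 CPM in WT and 0.988 to 1.26 in Dp16, with no overlap. Of the 7, 4 were tested, 2 positive and 2 negative. Of these 4, 1 (lower) had an edgeR unadjusted p below 0.05, against 24.6% of all genes. The groups overlapped in each of the 4, where 14.1% of all genes did not overlap. EdgeR and limma-voom called 0 (0.625% and 2.05% of all genes). DESeq2 called 1 lower, where it called 9.78% of all genes in either direction.

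Cacnb2 had the largest fold of the 10 genes, on few reads. It had 17, 6, 19 and 15 reads in WT replicates 1 to 4 and 27, 35, 27 and 25 in Dp16. These were 0.171, 0.0625, 0.188 and 0.130 CPM in WT and 0.247, 0.303, 0.251 and 0.258 in Dp16. All Dp16 libraries were above all WT libraries. The fold was 1.91 (log2 fold change 0.93, SE 0.353, 95% confidence interval 0.14 to 1.73), with an edgeR adjusted p of 0.157, and DESeq2 and limma-voom did not call it (adjusted p = 0.123 and 0.108). Single-library counting intervals were wide, from 2.20 to 13.1 reads around the 6 reads of WT replicate 2, without which the log2 fold change was 0.70. A filter of at least 1 CPM in 4 libraries removed Cacnb2 and Cacna2d2.

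**Figure D4:**
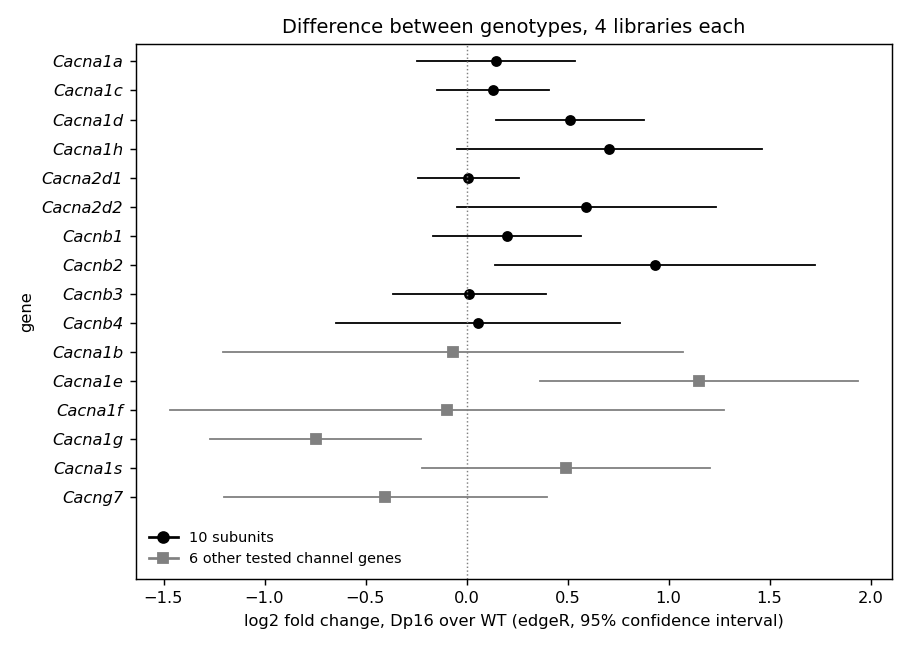
Log2 fold change of Dp16 over WT with its 95% confidence interval (edgeR) for the 10 subunit genes (black circles) and the 6 other channel genes tested (grey squares). The intervals of Cacna1d, Cacnb2, Cacna1e and Cacna1g exclude 0 before adjustment over all genes, and 0 of the 16 passed after it.

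The remaining 16 voltage-gated calcium channel genes gave a mixed picture. Of these, 14 had reads and 6 were tested. EdgeR called 0 (0.625% of all genes), and 2 had an edgeR unadjusted p below 0.05 (24.6% of all genes). DESeq2 called 1 higher and 1 lower, where it called 9.78% of all genes in either direction. The 6 tested genes had 2 positive and 4 negative values, with a median of -0.080. Cacna1e, the R-type pore, had 1.11, 1.02, 0.972 and 0.668 CPM in WT replicates 1 to 4 and 3.84, 1.41, 1.70 and 1.41 in Dp16, with no overlap. Its log2 fold change was 1.15 (SE 0.35, edgeR adjusted p = 0.11, DESeq2 adjusted p = 0.0186), and it was 0.68 without Dp16 replicate 1. Cacna1s, the skeletal muscle pore, had 0.49 (edgeR adjusted p = 0.355) on 25 to 78 reads. Cacng7, classed by its name as a gamma gene, had -0.40 (edgeR adjusted p = 0.503). The gamma genes were grouped by name only, and whether their proteins join calcium channels was not examined. The 8 gamma genes together held 2.62% ± 0.874 of the summed TPM of the family in WT and 2.26% ± 0.706 in Dp16, and Cacng3 and Cacng5 had 0 reads in all libraries.

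Cacna1g, the T-type pore Cav3.1, lay on the other side. It had 4.99, 4.77, 6.68 and 5.75 CPM in WT replicates 1 to 4 and 4.27, 2.91, 2.00 and 4.05 in Dp16. Every Dp16 library was below every WT library, with a log2 fold change of -0.75 (SE 0.233, edgeR adjusted p = 0.113, DESeq2 adjusted p = 0.0252). Reads of Cacna1h per read of Cacna1g were 0.333, 0.203, 0.205 and 0.124 in WT and 0.621, 0.396, 1.20 and 0.367 in Dp16. This ratio was chosen after the values were seen, and is given with no test. The groups did not overlap in it, but they already did not overlap in Cacna1g, its denominator. In Cacna1h alone they overlapped. T-type genes, Cacna1g among them, held 35.1% to 44.8% of summed pore TPM in WT and 22.4% to 33.5% in Dp16. Cacna1g alone held 26.8% to 36.8% and 9.77% to 23.3%. The shares of the other pore types overlapped. L-type genes held 29.1% to 31.5% in WT and 30.6% to 41.6% in Dp16. P/Q, N and R type genes held 26.1% to 34.2% and 30.4% to 38.4%. With the longest coding transcript as length the T-type shares were 25.9% to 33.6% and 16.0% to 24.1%.

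**Figure D5:**
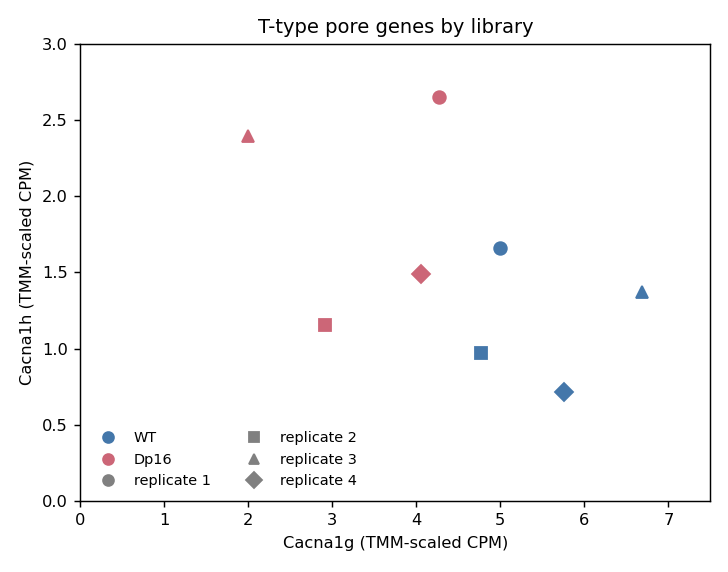
TMM-scaled CPM of the T-type pore genes Cacna1g (horizontal) and Cacna1h (vertical), each point a library, with colour for genotype and shape for replicate number. WT libraries lie to the right, at 4.77 to 6.68 CPM of Cacna1g, and Dp16 libraries to the left, at 2.00 to 4.27.

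Proteins that bind or regulate these channels were compared through a list of 27 genes. Of these, 25 were tested, 12 positive and 13 negative, with a median log2 fold change of -0.020. EdgeR called 0 (0.625% of all genes). At an unadjusted p below 0.05 it gave 5, or 20% of those tested, against 24.6% of all genes. DESeq2 called 1 higher and 1 lower and limma-voom 1 higher, where they called 9.78% and 2.05% of all genes in either direction. Akap5, a scaffold that holds protein kinase A and calcineurin beside L-type pores, came closest, with a WT level of 0.506 ± 0.0513 CPM and a Dp16 level of 1.02 ± 0.178 CPM (SD, n = 4). Its log2 fold change was 1.01 (SE 0.199), with adjusted p-values of 0.0577 by edgeR, 0.000568 by DESeq2 and 0.0374 by limma-voom, and no overlap of the groups. Cbarp, which binds beta subunits and lowers channel activity, had 2.26 ± 0.300 CPM in WT and 1.58 ± 0.124 in Dp16 (log2 fold change -0.51, SE 0.15, edgeR adjusted p = 0.103, DESeq2 adjusted p = 0.0187). Prkaca, a catalytic subunit of protein kinase A, which phosphorylates the channel complex, had -0.25 (edgeR adjusted p = 0.135). Stac2, an adaptor that slows the inactivation of L-type pores, had 1.23 on 8 to 39 reads (edgeR adjusted p = 0.139).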

How the data were processed

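The authors deposited a table of raw read counts per Ensembl gene for each library. The tools HTSeq, STAR, FastQC and DESeq2 and the build GRCm38 are listed in the submitters' processing notes, without versions or roles. Per the labels' protocols, ribosomal RNA was depleted and a strand-keeping kit used. Neither the annotation release nor the strand setting of the counting is given in the sources used here. The 5 rows that name no gene (58.1% to 65.4% of reads) were left out. GENCODE M21 (GRCm38) gave names, positions and lengths for 54809 of 54838 genes. Counts were fitted in R 4.3.3 with edgeR 4.0.16 (default filter, TMM, quasi-likelihood F-test, no covariate, two-sided, Benjamini-Hochberg over 19358 genes, called below 0.05), and the script was tested on simulated data. Alternatives were DESeq2 1.42.0, limma-voom (limma 3.58.1) with quality weights, other scalings and filters, a threshold of 0.10, the replicate number as a block, and each library left out. Leaving out single libraries under DESeq2 was chosen after seeing the data. Likeness used log2 CPM with a prior count of 2. Named genes were the 10 subunits, the 4 smallest p of each other list, and for the most abundant subunit and that with the smallest p the 3 genes of highest correlation among protein-coding genes with a mean log2 CPM of at least 0. Members and lists were chosen with earlier results of these data known. Differences between genes use TPM, differences between genotypes TMM-scaled CPM.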

Additional observations from a re-analysis of the deposited data

Results flagged for a closer look

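Cacna1d in Dp16 replicate 3 had 5.63 CPM, apart from the other 3 Dp16 libraries by 0.914 of the group's range, past Dixon's limit for 4 samples. Cacna2d2 in WT replicate 1 had 0.211 CPM, apart from the other 3 WT libraries by 0.84 of the range, on 21 reads. In 20 groups examined this way, chance flags about 1. Reads overlapping no counted feature, which enter no gene's count, took at least 18.4% of reads in each Dp16 library and at most 15.9% in each WT library.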

How the results depend on the processing

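The count of called subunits was 0 in each alternative run except DESeq2, which called 1 with all libraries and without WT replicate 1, Dp16 replicate 2 or Dp16 replicate 4, and 0 without any of the other 5. Over all genes the 121 calls of edgeR became 1980 by DESeq2, 1035 by DESeq2 without Dp16 replicate 3, 396 by limma-voom, 223 with no expression filter, 1308 at an adjusted p below 0.10, and 0 to 446 when single libraries were left out (0 without WT replicate 2 or Dp16 replicate 1). The cause was not tested. A filter of 1 CPM removed 2 subunits, and the coding transcript as length reordered 5 pairs. With a replicate block in the design, 776 genes and 0 subunits were called by edgeR. Deviations of same-numbered libraries correlated at 0.0777 to 0.191, and those of differently numbered ones at -0.225 to 0.141. Of the 8 libraries, 4 correlated best with their own number. These values do not settle whether the number marks a pairing. No label names one, so the main fit had no block. Numbers are those of the sample titles, and the WT library titled 4 carries the number 5 in its library name. Signs turned for small values: Cacna2d1 had -0.00048 by DESeq2 and -0.086 to 0.078 when libraries were left out, Cacnb3 -0.098 to 0.12 and Cacnb4 -0.11 to 0.28. By DESeq2 without Dp16 replicate 3, Cacna1a had -0.0096, Cacnb3 -0.11 and Cacnb4 -0.13, and 7 of 10 subunits were positive. Depth limits Cacnb2 and Cacna2d2, with at most 35 and 30 reads per library.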
